A study of Saccharomyces cerevisiae with 2 samples.

Results

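The amino acid permease genes AGP1, GNP1, BAP2, BAP3, TAT1, TAT2, HIP1, LYP1 and CAN1 and the gene of the amino acid sensor SSY1 were compared between a budding yeast strain with wild-type ACS2 and a strain with the temperature-sensitive allele acs2-Ts1. These 10 genes were chosen by name as the specific and broad permeases other than GAP1 and PUT4, with the sensor, and all 10 were measured among the 5449 genes read on the arrays. The product of ACS2 is a nuclear and cytosolic acetyl-CoA synthetase, an enzyme that joins acetate to coenzyme A. The data are 2 samples of total RNA, 1 per strain, each deposited as the mean of 2 Affymetrix arrays. With 1 sample per group there is no replicate check, no error and no test, and "higher" and "lower" below describe the acs2-Ts1 sample relative to the wild-type sample. Precision is limited by the number of arrays, and fewer cells or less RNA per cell cannot be told apart in such samples.

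Both strains derive from BY4741, have mating type a and carry the alleles his3delta1, leu2delta0, met15delta0 and also ura3delta0. The chromosomal ACS2 gene is replaced by HygMX in each strain, and a URA3 plasmid with a centromere carries either ACS2 (pHT112-1, strain YHT651) or acs2-Ts1 (pHT215, strain YHT652). Both cultures were grown in YPD, a rich medium, and held at 37 °C for 60 min before RNA extraction. No sample at a lower temperature was analysed here, so a difference between strains or plasmids that exists at any temperature cannot be told apart from one that arises at 37 °C. The titles of both samples say wild type, so the genotype field was used to assign the groups. With these alleles the cells cannot make histidine, leucine or methionine and depend on uptake for them.

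Amino acid permeases are membrane proteins of a single transporter family that carry amino acids into the cell with protons. In yeast, amino acids outside the cell are sensed by Ssy1, a permease-like protein that signals rather than transports. Ssy1 works with Ptr3 and Ssy5 in the SPS sensor, whose protease Ssy5 cuts the transcription factors Stp1 and Stp2 so that they enter the nucleus and switch on permease genes such as AGP1, GNP1, BAP2, BAP3, TAT1 and TAT2.

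The background against which the permeases are read is a table in which most genes were lower in acs2-Ts1. Over all genes the median log2 ratio, acs2-Ts1 relative to wild type, was -1.12, and it depended on level, from -0.47 in the lowest decile of wild-type intensity, where values lie near background, through -1.32 in the third to -0.36 in the top decile. In all, 86.4% of genes read lower in acs2-Ts1. For the 27 hybridization controls, which are of bacterial and phage origin, the median was -0.0050 with an SD of 0.17. Whether the authors' curve was fitted on these controls is not stated, and such a fit would by itself keep their ratios near 0. The background limit was set at the 95th percentile of probe sets for genes outside the species, which is 49.1 in the wild-type sample and 46.3 in the acs2-Ts1 sample. The median log2 ratio of these 1746 probe sets was -0.32. The 42 poly-A controls had a median of -0.36, and 41 of them were under this limit in at least 1 sample. Of the deleted genes, LEU2 read 68.0 and 77.5 in wild type and acs2-Ts1, and MET17 (MET15 in the labels) read 47.9 and 77.5. The alpha-specific gene STE3 read 214 and 59.0, while the a-specific gene STE2 read 3398 and 2089.9. HIS3 gave 1650.1 and 882, and whether its probe set lies in the deleted stretch was not examined. The plasmid genes read 10257 and 12426 for ACS2, and 1853 and 7059.5 for URA3. ACS2 is carried by both strains, so its level cannot serve to check the labels.

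The permease genes divided into a group that was close to the wild-type level and a group that was at least 2-fold lower. Of the 10 genes, 4 were at least 2-fold lower (TAT1, SSY1, HIP1 and TAT2), beside 55.9% of all genes. None was at least 2-fold higher, beside 3.67% of all genes. The other 6 genes, AGP1, GNP1, BAP2, BAP3, LYP1 and CAN1, were within 2-fold. The median log2 ratio of the 10 genes was -0.38, which lies 0.74 above the median of all genes, and 6 of the 10 lay above that median. Centred on the median of all genes, as if there were no global shift, the split turns to 0 genes lower by 2-fold and 4 genes (AGP1, BAP3, LYP1 and GNP1) higher by 2-fold. By the same centring 6.61% of all genes passed 2-fold on the lower side and 16.4% on the higher side. Centred on the poly-A controls, an alternative chosen after seeing the data, 2 genes (TAT1 and SSY1) were lower by 2-fold, beside 36.6% of all genes, while HIP1 and TAT2 had log2 ratios of -0.97 and -0.89 and the median of the set was -0.022.

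**Figure D1:**
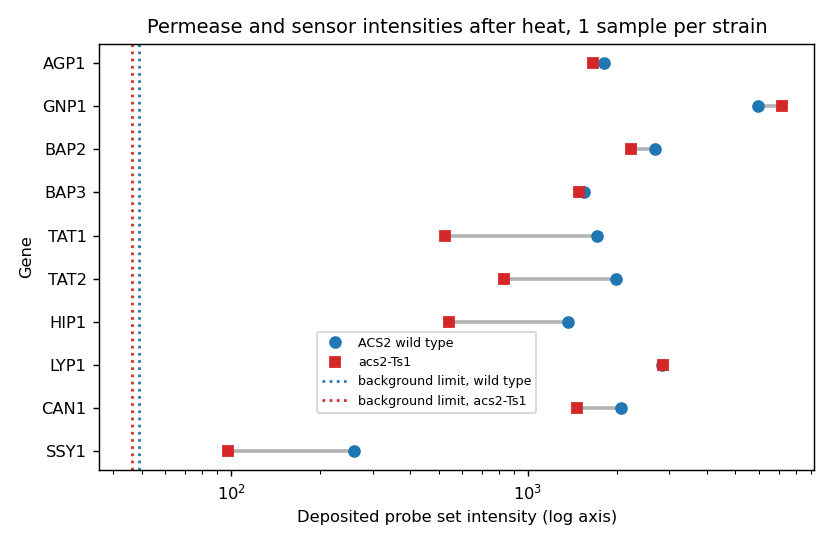
Deposited probe set intensity (log axis) of each permease gene and SSY1 in the wild-type sample (circles) and the acs2-Ts1 sample (squares), 1 sample per strain with no error bars. Dotted lines are the background limits of 49.1 and 46.3. The points of LYP1, BAP3 and AGP1 nearly coincide, while TAT1, TAT2, HIP1 and SSY1 are clearly apart.

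AGP1 and GNP1 encode the broad permeases of the set, which take up many neutral amino acids, glutamine among them for GNP1. AGP1 read 1804 in wild type against 1663 in acs2-Ts1 (log2 ratio -0.12). GNP1 read 5945 and 7178, and its log2 ratio of 0.27 was the highest of the 10 genes. Both genes thus stayed within 1.5-fold of wild type, and GNP1 lay at percentile 91.0 of the log2 ratios of all genes. In the top decile of wild-type intensity, to which GNP1 belongs, the median log2 ratio was -0.36, and the decile of AGP1 had a median of -0.96.

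BAP2 and BAP3 encode permeases for branched-chain amino acids, leucine, isoleucine and valine. BAP2 read 2689.8 in wild type against 2232 in acs2-Ts1 (log2 ratio -0.27). BAP3 read 1545 and 1488, a log2 ratio of -0.054, so that acs2-Ts1 held 96.3% of the wild-type intensity. Both lay above the middle of genes of like wild-type intensity, BAP2 by 0.70 and BAP3 by 1.11 on the log2 scale. The log2 ratio of BAP2 minus that of BAP3 was -0.21. With 1 sample per strain there is no spread between cultures to set this difference against.

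TAT1 and TAT2 are permeases with aromatic substrates, TAT2 being the high-affinity tryptophan permease and TAT1 a carrier of tyrosine that also takes other amino acids. TAT1 read 1708 in wild type against 527 in acs2-Ts1, a 3.24-fold lower value and the lowest log2 ratio of the 10, at -1.70. TAT2 read 1974 and 829.7, which is 2.38-fold lower (log2 ratio -1.25). TAT1 and TAT2 were therefore both on the low side of the set, unlike BAP2 and BAP3. As TAT1 also takes other amino acids, this is a contrast between genes and not between substrates. Relative to the median of genes of like wild-type intensity, the log2 ratio was -0.53 for TAT1 and -0.29 for TAT2. Compared with all genes neither was extreme, TAT1 at percentile 20.8 of the log2 ratios and TAT2 at percentile 43.1.

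HIP1, LYP1 and CAN1 encode the permeases for basic amino acids: histidine for HIP1, lysine for LYP1 and arginine for CAN1. HIP1 read 1360.1 in wild type against 543 in acs2-Ts1, 2.51-fold lower (log2 ratio -1.33). LYP1 read 2837 and 2859, a log2 ratio of 0.011. CAN1 read 2061 and 1460.2, which is 1.41-fold lower (log2 ratio -0.50). The basic permeases thus covered most of the range of the set, with LYP1 at the same level in both samples, CAN1 between and HIP1 close to the all-gene median.

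SSY1, the sensor, lay closer to background than the permease genes. It read 259 in wild type against 97.9 in acs2-Ts1, 5.27 and 2.11 times the background limit of each sample. The deleted LEU2 gene read 77.5 in acs2-Ts1, not far under SSY1. The alpha-specific gene STE3, in these cells of mating type a, read 214 in wild type, also not far under SSY1, and 59.0 in acs2-Ts1. The margin of SSY1 over background is thus less sure than the limits alone show. The SSY1 value was 2.64-fold lower (log2 ratio -1.40). That is -0.28 relative to the all-gene median and -0.080 relative to the median of its decile of wild-type intensity. With the background limit subtracted from both samples the log2 ratio of SSY1 became -2.02, and with 32 added to both values it became -1.16. The size of this ratio thus depends on how background is treated. The median of all genes was -1.35 with background subtracted and -0.999 with 32 added. On the deposited scale SSY1 moved about as far as genes of its level did, a comparison not made for the other 2 treatments.

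**Figure D2:**
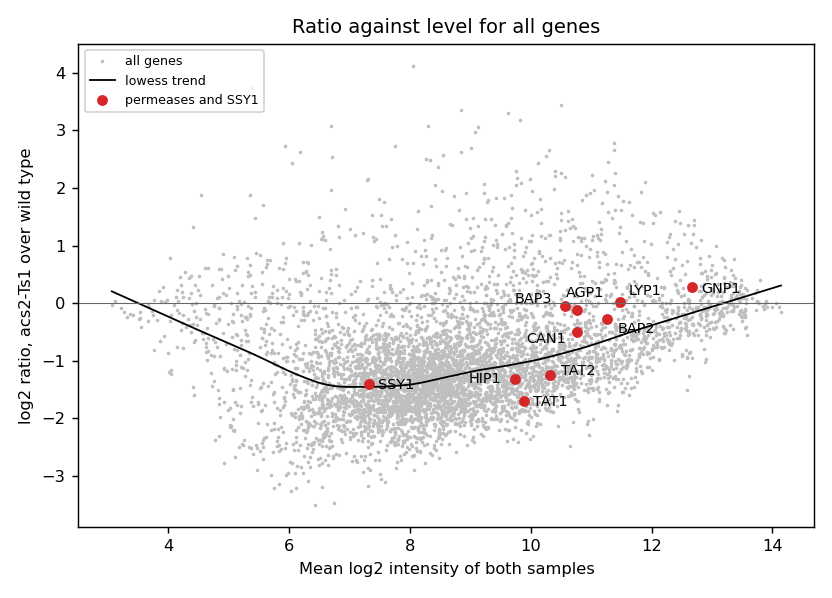
log2 ratio (acs2-Ts1 over wild type) against the mean log2 intensity of both samples, for 5449 genes (grey), with the permease genes and SSY1 in red and a lowess trend of span 0.30 in black. AGP1, GNP1, BAP2, BAP3, LYP1 and CAN1 lie above the trend, TAT1, TAT2 and HIP1 below it, and SSY1 within 0.050 of it.

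Part of the distance between the permeases and all genes goes with their brightness. When the trend of ratio with level was removed by the lowess curve, the median of the 10 genes was 0.34, against -0.012 for all genes, and 7 of the 10 were above 0. On that scale BAP3 stood at 0.81, AGP1 at 0.69, LYP1 at 0.58, GNP1 at 0.44, BAP2 at 0.37 and CAN1 at 0.31. SSY1 stood at 0.050, HIP1 at -0.27, TAT2 at -0.32 and TAT1 at -0.67. TAT1, TAT2 and HIP1 stayed under the other permeases with the trend removed. The permeases other than GNP1 lie in deciles 8 and 9 of wild-type intensity. Removal of a smooth trend could therefore change the gaps between them little, and the separation gains no support from it. No gene of the set was 2-fold away from the trend in either direction.

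**Figure D3:**
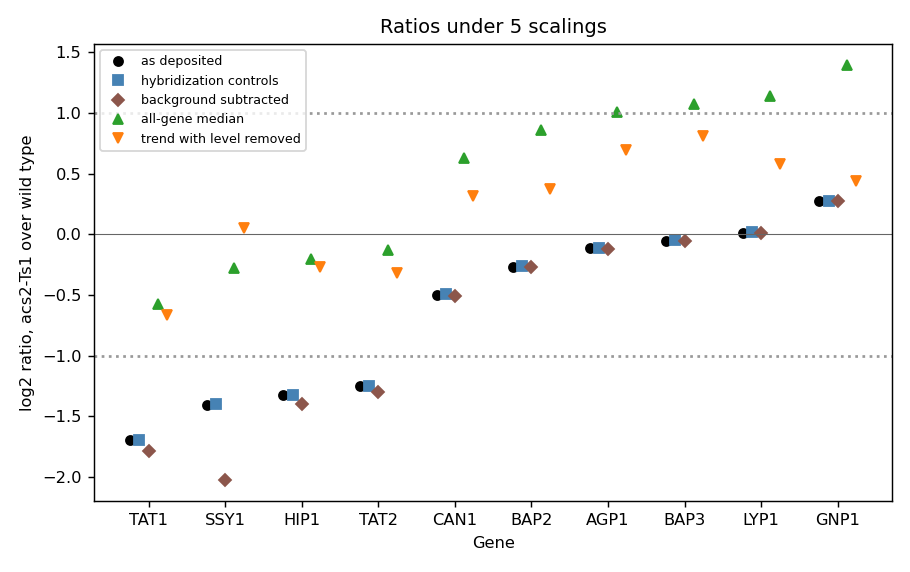
log2 ratio (acs2-Ts1 over wild type) for each permease gene and SSY1 under 5 scalings, with dotted lines at 2-fold. Centring on the all-gene median adds the same 1.12 to every gene and lifts AGP1, BAP3, LYP1 and GNP1 past 2-fold, while subtraction of background moves SSY1 the most.

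TAT1 and BAP2 are neighbours on the chromosome in the gene order of RefSeq assembly R64, with no protein-coding gene between them, and their log2 ratios differed by 1.43. CAN1 lies between AVT2, for a vacuolar amino acid transporter, and NPR2, whose log2 ratios were -1.80 and -1.78, both lower than the -0.50 of CAN1. HIP1 lies between CRH1 and TDH3, with log2 ratios of 0.56 and -0.16, both higher than that of HIP1. Of the 10 genes, 5 had a higher log2 ratio than both adjacent protein-coding genes (AGP1, BAP2, GNP1, LYP1 and CAN1), 3 a lower one than both (TAT1, TAT2 and HIP1) and 2 lay between (BAP3 and SSY1). Over 4628 genes with both neighbours measured, 31.4% lay above both, 32.04% below both and 36.6% between, so the counts are given as a description only, and BAP2 and TAT1 count each other as neighbours. One neighbour of LYP1, BSC4, and one of TAT2, YOL019W-A, were under the background limit, so these positions rest on dim values for those genes.

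The genes closest in both levels were found by the distance between log2 intensities over the 2 samples, which for so few samples only says that the same pair of values occurred elsewhere. TAT1 was closest to COQ2 (1691 and 524), NIT3 and DUT1. GNP1 was closest to COS2 (5875 and 7018), HXK1 and ERG6, and SSY1 to SPO75 (254 and 97.4), OCA4 and CBT1.

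The partners of SSY1 in the sensor were lower to a similar degree. PTR3, the scaffold of the sensor, read 355 in wild type against 140.01 in acs2-Ts1 (2.54-fold lower), and SSY5, its protease, read 360.05 and 127 (2.83-fold lower). The 3 sensor genes thus had log2 ratios of -1.34 for PTR3, -1.40 for SSY1 and -1.50 for SSY5. Relative to the median of genes of like wild-type intensity these were -0.023, -0.080 and -0.18. On the deposited scale all 3 thus moved about as far as genes of their level did. The transcription factors they release went different ways on the deposited scale: STP1 read 516 and 274 (log2 ratio -0.91), while STP2 read 454 and 676 (log2 ratio 0.58). Both lay above the all-gene median, STP1 by 0.21 and STP2 by 1.70. The log2 ratio of STP1 minus that of STP2 was -1.49. DAL81, a co-activator at these promoters, was 2.64-fold lower, at 410.5 and 155.5, which is -0.081 relative to the median of its decile.

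Of 12 further SPS pathway genes, counting PTR3, SSY5, STP1, STP2 and DAL81, 8 were at least 2-fold lower, beside 55.9% of all genes. Only ASI3 was at least 2-fold higher, beside 3.67% of all genes. The median log2 ratio of the list was -1.03, close to that of all genes. ASI3 read 545 in wild type against 1260.3 in acs2-Ts1, 2.31-fold higher. Asi3 belongs to a ubiquitin ligase of the inner nuclear membrane that keeps uncut Stp1 and Stp2 from acting. The genes of its partners did not share that direction on the deposited scale, with ASI1 at 1042 and 512 (log2 ratio -1.03) and ASI2 at 383 and 197 (log2 ratio -0.96). GRR1, an F-box protein needed for SPS signalling, read 646 and 279. The casein kinases YCK1 and YCK2, which act on Ssy5, read 1264 and 618, and 1263 and 521. RTS1, a regulatory subunit of protein phosphatase 2A, read 1566 and 764. GRR1, YCK1, YCK2 and RTS1 thus all lay between 2.04-fold and 2.42-fold lower.

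The 3 listed targets of the SPS sensor outside the 10 genes all read above wild type, as 742 of 5449 genes did. None was at least 2-fold higher, beside 3.67% of all genes. The list is short and was chosen with earlier results of these data known. DIP5 and MUP1 are also counted among the other transporters of the family. PTR2, the transporter for small peptides, read 4903 in wild type against 6065 in acs2-Ts1 (log2 ratio 0.31). DIP5, for glutamate and aspartate, read 2694 and 4162 (log2 ratio 0.63). MUP1, the high-affinity methionine permease, read 1301 and 2350.4 (log2 ratio 0.85). Among the permease genes of the set known as SPS targets, GNP1 was the only gene above wild type, while AGP1, BAP2 and BAP3 were within 1.5-fold and TAT1 and TAT2 at least 2-fold lower.

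Other genes of the transporter family spread further than the 10. The highest of them, PUT4 and GAP1, were left out of the 10 by choice, so this spread partly follows from how the set was drawn. Past the 2-fold threshold were 5 of 14 such genes on the lower side, beside 55.9% of all genes. On the higher side were 2, beside 3.67% of all genes. These counts include AGP3 and PUT4, which were dim in 1 sample and for which no fold is given below. The shares of all genes likewise include dim genes. The median log2 ratio was -0.67, which is 0.45 above that of all genes. Those higher were GAP1, the general amino acid permease, at 503 and 3170.2 (6.30-fold), and PUT4, the proline permease, at 63.4 and 1100.5, where no fold is given because the wild-type value was under that of the deleted LEU2 gene. SAM3, for S-adenosylmethionine, read 379 and 706 (log2 ratio 0.90). The low-affinity methionine permease gene MUP3 read 480 and 341 (log2 ratio -0.49), and HNM1, for choline, 3465 and 3064. The methionine permease genes MUP1 and MUP3 thus lay on opposite sides of wild type on the deposited scale. Both lay above the all-gene median, MUP1 by 1.98 and MUP3 by 0.63.

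Those at least 2-fold lower were UGA4, for GABA (355 and 123), TPO5, for polyamine export (735 and 268), MMP1, for S-methylmethionine (328 and 146), AGP2, needed for carnitine and polyamine uptake (505 and 231), and AGP3. AGP3 read 105 in wild type and 36.1, below background, in acs2-Ts1, so no fold is given. ALP1, the relative of CAN1 and LYP1 for basic amino acids, read 119 and 66.0, and BIO5, for a biotin precursor, read 101 and 55.3. Both were dim in both samples.

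**Figure D4:**
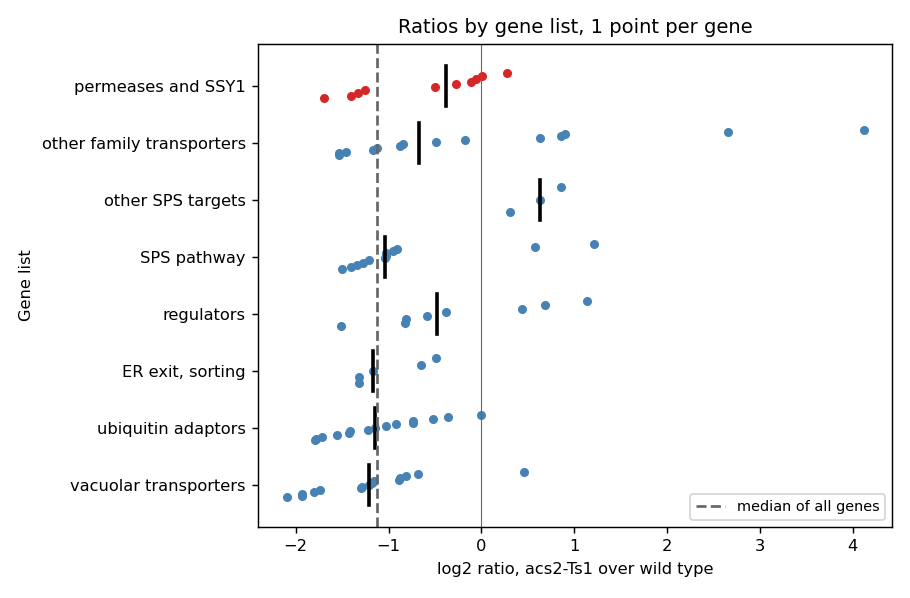
log2 ratio (acs2-Ts1 over wild type) for each measured gene of the permease set (red) and of 7 related gene lists (blue), with the median of each list as a black bar and the all-gene median of -1.12 as a dashed line. DIP5 and MUP1 appear in 2 lists; the permease set divides into 4 genes under -1 and 6 genes between -0.50 and 0.27.

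Genes that carry permeases to the membrane or take them off it were at least 2-fold lower about as often as all genes, for which the share was 55.9%. SHR3, the chaperone that lets permeases leave the endoplasmic reticulum, read 4382 in wild type against 1758 in acs2-Ts1 (2.49-fold lower), a log2 ratio that is -0.96 relative to the median of its decile of wild-type intensity. Of 5 measured genes of this step, 3 were at least 2-fold lower, with NPR1, a kinase that stabilises permeases, at 509.7 and 205 and LST7 at 329 and 146, while LST4 read 1118 and 715 and ERV14, a cargo receptor, 3048 and 2166. CSH3 was not analysed here. Of 15 genes for the ubiquitin ligase RSP5, its adaptors and related factors, 9 were at least 2-fold lower (median log2 ratio -1.15). All 15 read lower in acs2-Ts1, as 86.4% of all genes did. The 9 include ART10 and SSH4, whose acs2-Ts1 values of 42.3 and 64.7 were under the 77.5 of the deleted LEU2 gene. Low ratios were those of ART5 (405 and 117) and BUL1 (845 and 257), an adaptor for GAP1, and ART10 read 146 in wild type against 42.3, below background, in acs2-Ts1, so its ratio has no rank. At the other end were CSR2 (198 and 197), EAR1 (629 and 489) and RSP5 itself (1715 and 1192).

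The vacuolar transporters, which store amino acids in the vacuole or release them, had a median log2 ratio of -1.21, close to the -1.12 of all genes. The 10 permease and sensor genes had a median of -0.38, a difference for which there is no test. Of 15 vacuolar transporter genes measured, 10 were at least 2-fold lower, beside 55.9% of all genes. None was higher by that much, beside 3.67% of all genes. VBA5 was not analysed here. RTC2 (YPQ3 by another name), counted among the 10, read 328 in wild type against 77.0 in acs2-Ts1. No fold is given for RTC2 because the latter value was under that of the deleted LEU2 gene. AVT5 was 3.83-fold lower at 798 and 208, and YPQ2 3.81-fold lower at 865 and 227. Those nearest to wild type were ATG22 (771 and 481), AVT1 (2185 and 1241) and YPQ1 (2957 and 1608), and VBA3 was under the background limit in both samples.

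Regulators of amino acid and nitrogen genes were mostly within 2-fold. Of 8 genes, 1 passed 2-fold in each direction, beside 55.9% of all genes on the lower side and 3.67% on the higher side. The median log2 ratio of the 8 genes was -0.48, which is 0.64 above that of all genes. GAT1, an activator of genes for poor nitrogen sources, read 619 in wild type against 1364 in acs2-Ts1, 2.20-fold higher. GCN4, the activator of amino acid synthesis genes, read 8112 and 10983 (log2 ratio 0.44), though its protein is known to be set largely by translation. GCN2, the kinase upstream of GCN4, was 2.85-fold lower at 588 and 206, GCN1, which works with it, read 2406 and 1365, and URE2, an inhibitor of the GATA factors, read 721 and 407. DAL80, a repressor of nitrogen genes, was under the background limit in wild type, at 39.1, and read 63.0 in acs2-Ts1.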

How the data were processed

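Total RNA was read on biotin-labelled Affymetrix arrays. The deposited values are linear probe set intensities: per the series' design text and the labels, the authors corrected 4 arrays for background, averaged the 2 arrays of each strain and normalized the means to controls with a lowess curve, because of a global change in expression. RMA is named in the submitters' processing notes. For its version, the summary step and the controls, the sources used here say nothing. The scale between samples was kept as deposited, so an error in it would shift all genes together.

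Of 10928 probe sets, 5498 matched a gene of the species through the platform annotation and the RefSeq table of assembly R64, which was used for names and gene order only. They represent 5449 genes. Each gene was read by its brightest probe set, with suffix-lettered sets used only where there was no other. Each of the 10 genes has 1 probe set, none with a suffix. The log2 ratio was computed without a pseudocount, with a threshold of 2-fold. No p-value was computed.

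Members and gene lists were chosen with earlier results of these data known. Named are all 10 genes, every SPS pathway, family and target gene, up to 3 genes at each end of the other lists whose higher value is above background, genotype check genes and the 3 genes nearest in level to SSY1, TAT1 and GNP1. Alternatives were other centrings, removal of the trend with level, other probe set rules, 32 added to both values, background subtraction, leaving out genes under the 25th percentile of level, thresholds of 1.5-fold and 3-fold and, added after seeing the data, centring on poly-A controls. Python 3.11.15 with statsmodels 0.14.6 was used, and the trend step was tested on simulated data.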

Additional observations from a re-analysis of the deposited data

How the results depend on the processing

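The scale between the samples decides the direction of some values. Centring on the median of all genes turned the sign of 4 of the 10 genes and of 3 of 7 list medians, and removal of the trend turned 5 and 5. Centred on the median of all genes, the median log2 ratio of the 10 genes was 0.74 in place of -0.38, with 4 genes at least 2-fold higher and 0 lower by that much. With the trend with level removed it was 0.34, with 0 genes lower by 2-fold, and the log2 ratio of SSY1 was 0.050. Centred on the poly-A controls, an alternative added after seeing the data whose probe sets are nearly all at background, the median was -0.022 and 2 genes were lower by 2-fold. At a threshold of 3-fold 1 gene, TAT1, was lower, beside 25.8% of all genes. The SPS pathway list had a median of 0.091 centred on all genes and 0.061 without the trend, where the list for exit from the endoplasmic reticulum had 0.13 and that for ubiquitin adaptors 0.032. These shifts follow from the construction of the centrings. Over all genes 3048 were at least 2-fold lower and 200 higher as deposited, 360 and 896 centred on all genes, 221 and 668 without the trend, and 1996 and 307 centred on poly-A controls. Of 32 alternative values for the median and the counts of the 10 genes, the other 24 were close to those reported. Those centred on hybridization controls or bright control probe sets are among them, but as the authors had already scaled to controls, they say little about stability. Others of the 24 could not differ. The other probe set rules change nothing where each gene has 1 probe set without a suffix. A count of 0 genes higher by 2-fold must also stay 0 at 3-fold. The 24 values are therefore no measure of stability. No paired analysis was possible because each group is 1 sample, and for the same reason no replicate could be left out.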
